A study of Mus musculus with 6 samples.

Results

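Integrins are receptors made of 1 alpha chain and 1 beta chain that bind cells to each other or to the extracellular matrix. The 10 integrin chains described here were picked by gene symbol, and each matched 1 of the 54752 genes in the count tables. They fall into 5 leukocyte chains (Itgam, Itgax, Itgal, Itgb2 and Itga4) and 5 widely expressed chains (Itga5, Itga6, Itgav, Itgb1 and Itgb5). Their RNA was measured by RNA-seq in whole hippocampi of the right side, from 3 sham mice and from 3 mice with bilateral carotid artery stenosis (BCAS). All were wild-type male C57BL/6 mice (C57BL/6 J in the methods), labelled as 14 weeks old. They were taken 3 weeks after surgery, with 1 library per mouse. In BCAS a microcoil was wound around each common carotid artery, with the narrower coil on the right, which lowers blood flow to the brain, and sham mice were operated on without coils. The comparison addresses how the hippocampal RNA level of each chain differs after hypoperfusion, and whether leukocyte chains differ from widely expressed ones.

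The beta chain Itgb2 pairs with Itgal (LFA-1), Itgam (Mac-1, also called CD11b/CD18, a complement receptor) or Itgax (CD11c/CD18, also a complement receptor), and these pairs are found on leukocytes. Microglia carry Mac-1, and activated microglia can carry CD11c/CD18. Itga4 pairs with Itgb1 to give VLA-4, which binds VCAM-1 on activated endothelium and fibronectin. Itgb1 also pairs with Itga5 to give the main fibronectin receptor and with Itga6 to give a laminin receptor of vessels, while Itgav pairs with Itgb1, Itgb3, Itgb5, Itgb6 or Itgb8 and binds RGD ligands such as vitronectin and latent TGF-beta. Whole tissue holds all of these cells together. In whole tissue, more or fewer cells of a type and more or less RNA per cell cannot be told apart.

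In mm10 coordinates, 3 of the 4 chains of the LFA-1, Mac-1 and CD11c/CD18 group share a chromosome. Itgal (ENSMUSG00000030830.18) lies on chromosome 7 from 127296260 to 127335138, Itgam (ENSMUSG00000030786.18) from 128062640 to 128118491, and Itgax (ENSMUSG00000030789.9) from 128129547 to 128150657, all on the plus strand. Only 11055 bases separate the end of Itgam from the start of Itgax. Itgb2 (ENSMUSG00000000290.13) lies on chromosome 10 from 77530252 to 77565708. Chromosome 2 carries Itga6 (ENSMUSG00000027111.15, 71745616 to 71858416), Itga4 (ENSMUSG00000027009.18, 79255426 to 79333123) and Itgav (ENSMUSG00000027087.11, 83724397 to 83806916). Itgb1 (ENSMUSG00000025809.15) lies on chromosome 8 from 128685654 to 128733200 and Itgb5 (ENSMUSG00000022817.15) on chromosome 16 from 33829665 to 33949338. Itga5 (ENSMUSG00000000555.8), on chromosome 15 from 103344286 to 103366763, is the 1 chain on the minus strand.

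The 250 bases before the RefSeq start of 7 of the 10 genes were found in RefSeq promoter sequences of build GRCm38.p6. Those of the neighbours Itgam and Itgax and of the beta chains Itgb1 and Itgb5 are shown. They were picked with their base composition and response known, and a link between composition and response was not tested. Capitals mark matches on either strand to GAGGAA (core of a PU.1 motif), to TGANTCA (an AP-1 motif) or to GGGCGG (a GC box), and CCGCCC and TTCCTC are such motifs read on the other strand.
Itgam, chr7:128062390-128062639, plus strand: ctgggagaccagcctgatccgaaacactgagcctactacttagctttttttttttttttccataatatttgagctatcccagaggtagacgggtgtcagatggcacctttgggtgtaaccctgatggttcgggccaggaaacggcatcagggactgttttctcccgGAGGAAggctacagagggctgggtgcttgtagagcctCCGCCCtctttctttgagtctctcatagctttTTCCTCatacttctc
Itgax, chr7:128129300-128129549, plus strand: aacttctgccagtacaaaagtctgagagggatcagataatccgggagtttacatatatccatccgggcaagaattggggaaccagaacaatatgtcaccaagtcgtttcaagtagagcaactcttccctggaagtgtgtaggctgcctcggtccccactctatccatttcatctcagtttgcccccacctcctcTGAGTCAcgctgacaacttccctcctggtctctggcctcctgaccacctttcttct
Itgb1, chr8:128685404-128685653, plus strand: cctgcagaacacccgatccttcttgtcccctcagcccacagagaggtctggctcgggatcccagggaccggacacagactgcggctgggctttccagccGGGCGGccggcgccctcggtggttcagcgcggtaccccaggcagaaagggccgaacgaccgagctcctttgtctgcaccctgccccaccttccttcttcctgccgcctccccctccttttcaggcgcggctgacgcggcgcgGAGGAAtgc
Itgb5, chr16:33829415-33829664, plus strand: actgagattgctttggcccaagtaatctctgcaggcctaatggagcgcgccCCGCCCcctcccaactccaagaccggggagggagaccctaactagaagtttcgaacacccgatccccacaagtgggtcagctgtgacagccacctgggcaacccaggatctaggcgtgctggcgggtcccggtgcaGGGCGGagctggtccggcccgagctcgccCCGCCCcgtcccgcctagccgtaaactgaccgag

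The Itgam and Itgax windows held 49.6% and 50% G or C with 6 and 5 CpG dinucleotides, close to the medians of 52.4% and 6 over 32841 promoter windows of the same length. The Itgb1, Itgb5 and Itgav windows held 68.0%, 65.2% and 64.4% G or C with 21, 18 and 18 CpG. Itga4 held 64.0% with 6 CpG and Itga5 55.6% with 11. GAGGAA occurred 2 times before Itgam, 2 times before Itgav and 1 time each before Itga5 and Itgb1, against 23.3% of all windows with a match. TGANTCA occurred 1 time, before Itgax, against 6.75% of windows. GGGCGG was present before Itgam, Itga4, Itga5, Itgb1 and Itgb5 (32.8% of windows), TGTGGT (a RUNX motif) before Itga4 (14.1% of windows), and TATAAA before none of the 7 genes (12.4% of windows). None of the motifs overlapped another in letters, and a match describes letters only.

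The libraries held 29652456 to 35607098 counts. A limit of 3 counts corresponded to 0.0874 to 0.0994 CPM (counts per 1e6 counts, scaled by TMM) and covers counting error only, and all 10 chains were above it in every library. Of 18617 genes tested with edgeR's quasi-likelihood test, 31.3% were called at an adjusted P under 0.05, 18.0% higher and 13.2% lower in BCAS mice. Without sham mouse 3 the number of calls was 3782 in place of 5819. Leaving out 1 mouse at a time gave 2453 to 3554 higher calls in place of 3356, and 1260 to 3092 lower calls in place of 2463, the lower calls being 1449, 1412 and 1260 without sham mouse 1, 2 and 3. The groups did not overlap for 48.0% of the tested genes, 25.3% with BCAS mice higher and 22.7% with BCAS mice lower. Genes are termed differentially expressed (DEGs) here if they were called and had an absolute log2 fold change above 1, which 8.47% of the tested genes were in the upward and 0.999% in the downward direction. The median log2 fold change over all tested genes was 0.018. RNA of neurons was present in every library, with hippocampal neuron markers summing to 4435 to 4955 CPM in sham mice against 2339 to 3411 CPM in BCAS mice. Ttr, a choroid plexus gene, varied within both groups, from 1305 to 126044 counts in sham mice and from 714 to 177411 in BCAS mice, and was lowest in sham mouse 3 and BCAS mouse 2.

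Of the 10 integrin chains, 9 rose in BCAS mice, 7 of them as DEGs, and 1, Itga4, was not called. The leukocyte chains had 4 of 5 called upward with a median log2 fold change of 3.01, and the widely expressed chains had 5 of 5 called upward with a median of 1.47. The groups did not overlap for any of the 10 chains, with BCAS mice higher for 9 and lower for Itga4. The summed level of the leukocyte chains was 37.6 to 43.1 CPM in sham mice against 172 to 249 CPM in BCAS mice. That of the widely expressed chains was 218 to 233 CPM in sham mice against 539 to 744 CPM in BCAS mice.

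**Figure D1:**
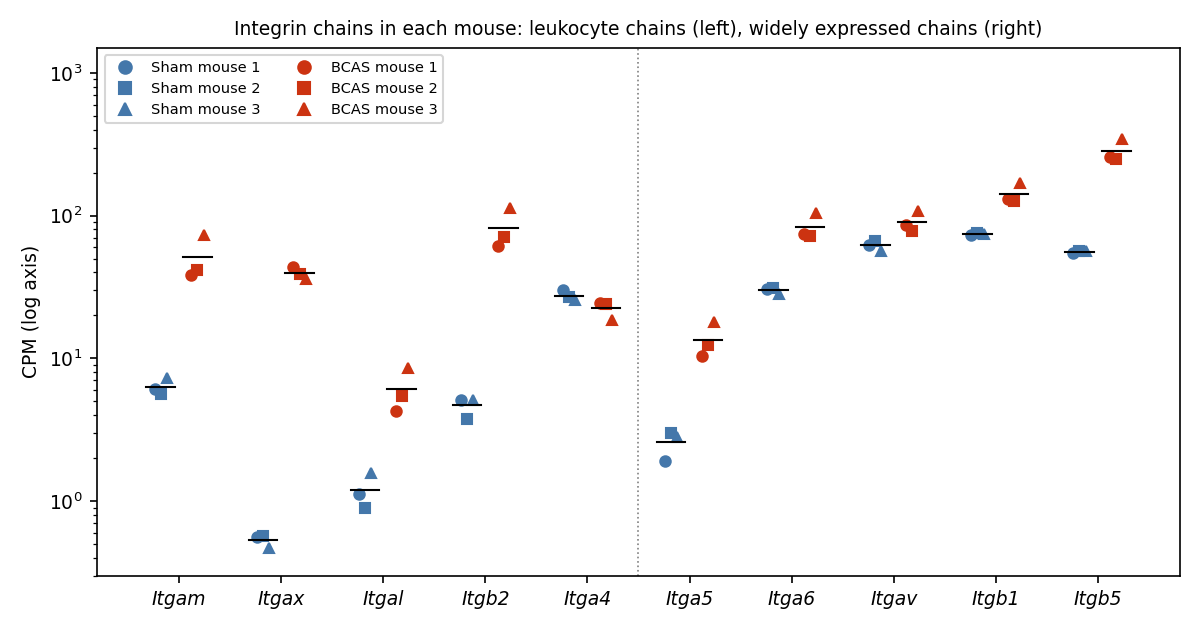
CPM of the 10 integrin chains in each mouse on a log axis, leukocyte chains left of the dotted line and widely expressed chains right of it, with a black bar at each group mean (n = 3). Blue points are sham and red points BCAS mice, and Itgax shows the widest gap, from 0.466 to 0.568 CPM in sham mice to 35.9 to 43.9 CPM in BCAS mice.

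Itgax, the alpha chain of CD11c/CD18, had 19, 19 and 16 counts in sham mice 1 to 3 against 1429, 1172 and 1122 counts in BCAS mice 1 to 3. In CPM these were 0.560, 0.568 and 0.466 in sham mice against 43.9, 38.8 and 35.9 in BCAS mice. The BCAS mice lay close to each other and far above the sham mice. The means were 0.532 ± 0.0568 and 39.6 ± 4.06 CPM (SD, n = 3 each), and the change was 6.21 on the log2 scale (standard error 0.16, edgeR adjusted P = 2.48e-07), or 74.0-fold. This was the largest change among the 10 chains.

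Itgb2, the shared beta chain of LFA-1, Mac-1 and CD11c/CD18, had 5.13, 3.77 and 5.13 CPM in sham mice against 60.9, 70.3 and 113 CPM in BCAS mice. BCAS mouse 3 was the highest and the groups were far apart. Its log2 fold change was 4.12 (standard error 0.25, edgeR adjusted P = 1.93e-05), or 17.4-fold, with means of 4.68 ± 0.786 and 81.3 ± 27.6 CPM (SD, n = 3 each).

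Itgam, the alpha chain of Mac-1, was measured at 6.07, 5.59 and 7.31 CPM in sham mice against at 38.1, 41.8 and 73.3 CPM in BCAS mice. Again BCAS mouse 3 stood above BCAS mice 1 and 2, and the lowest BCAS mouse was well above the highest sham mouse. The log2 fold change was 3.01 (standard error 0.25, edgeR adjusted P = 6.73e-05), or 8.07-fold. The counts of Itgam understate its level, because 3450 of its 5024 exonic bases (68.7%) also belong to Gm49368, a gene model on the same strand, and reads on shared bases were not assigned to either gene. Gm49368 itself had 0 to 2 counts per library.

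Itgal, the alpha chain of LFA-1, was the lowest leukocyte chain per length in BCAS mice, with 38, 30 and 54 counts in sham mice against 138, 164 and 265 counts in BCAS mice. In CPM these were 1.12, 0.897 and 1.57 against 4.24, 5.43 and 8.49. No sham mouse reached a BCAS mouse. Its change was 2.33 on the log2 scale (standard error 0.32, edgeR adjusted P = 0.000956), or 5.04-fold.

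Itga4, the alpha chain of VLA-4, differed in direction from the other leukocyte chains. It had 30.2, 26.8 and 25.6 CPM in sham mice against 24.4, 24.1 and 18.7 CPM in BCAS mice. All BCAS mice lay below all sham mice, by a narrow gap, and BCAS mouse 3 was the lowest. Its log2 change of -0.30 (standard error 0.13) was not called, with an edgeR adjusted P of 0.110. Without BCAS mouse 3 the log2 change of Itga4 was -0.19, so its size depended on that mouse. In sham mice Itga4 had a mean of 27.5 CPM, against 4.68 CPM for the leukocyte chain Itgb2. Which cells carried the Itga4 RNA was not tested. Opposite in strand, Cerkl covers 8.04% of the exonic bases of Itga4. The Cerkl counts of 39 to 80 per library were low beside the 584 to 1024 counts of Itga4.

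Among the widely expressed chains, Itgb5, a vitronectin-binding partner of Itgav, had the most certain rise. Its level was 54.9, 56.7 and 56.1 CPM in sham mice against 256, 250.5 and 345 CPM in BCAS mice. The sham mice were nearly equal, and the lowest BCAS mouse exceeded every sham mouse by more than the range within BCAS mice. The log2 fold change was 2.34 (standard error 0.13, edgeR adjusted P = 1.36e-05), or 5.07-fold, close to the changes of Itgal and Itga5.

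Itga5, the alpha chain of the fibronectin receptor, was low, with 65, 101 and 97 counts in sham mice against 337, 372 and 559 counts in BCAS mice. In CPM these were 1.92, 3.02 and 2.83 against 10.4, 12.3 and 17.9. The groups were well apart. The log2 fold change was 2.38 (standard error 0.25, edgeR adjusted P = 0.000209), or 5.22-fold.

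Itga6, the laminin-binding alpha chain, had 30.8, 31.1 and 28.2 CPM in sham mice against 74.0, 71.5 and 104 CPM in BCAS mice. BCAS mice 1 and 2 were alike and BCAS mouse 3 higher. Its log2 fold change was 1.47 (standard error 0.14, edgeR adjusted P = 0.000136), or 2.77-fold.

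Itgb1, the most shared beta chain, had 73.3, 75.2 and 73.8 CPM in sham mice against 131, 127 and 170 CPM in BCAS mice. The groups were well apart, but the log2 change of 0.94 (standard error 0.11, edgeR adjusted P = 0.000395), or 1.92-fold, was just under the DEG threshold. Its log2 fold change was above the threshold with library totals in place of TMM factors (1.02) and without BCAS mouse 2 (1.01), which makes 8 DEGs among the 10 chains in place of 7.

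Itgav, the alpha chain shared by 5 beta chains, had the smallest rise, from 61.8, 66.7 and 56.7 CPM in sham mice to 86.3, 77.8 and 107 CPM in BCAS mice. The gap between the highest sham mouse and the lowest BCAS mouse was about as wide as the range among sham mice and narrower than the range among BCAS mice. The log2 fold change was 0.55 (standard error 0.12, edgeR adjusted P = 0.00909), or 1.47-fold, below the DEG threshold.

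**Figure D2:**
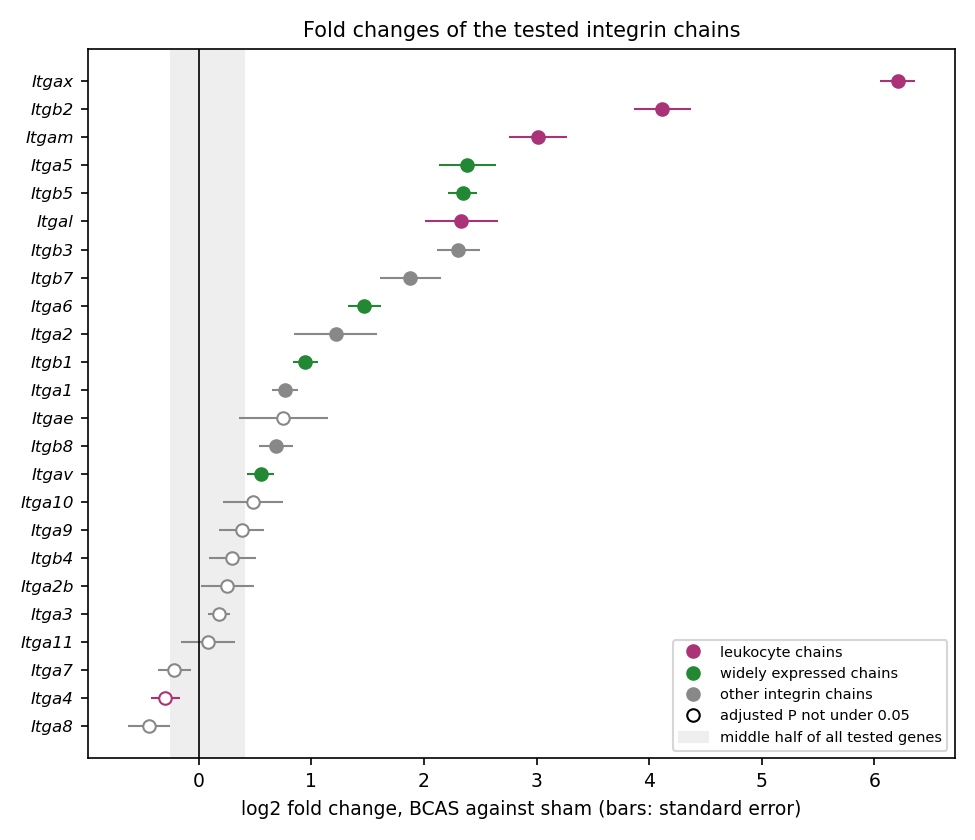
Log2 fold change of BCAS against sham for the 24 tested integrin chains, with bars of 1 standard error. Filled points were called at an adjusted P under 0.05, the grey band spans the range between the quartiles of all tested genes (-0.24 to 0.40), and Itgax (6.21), Itgb2 (4.12) and Itgam (3.01) lie furthest to the right.

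To compare chains with each other, levels were divided by the exonic length not shared with another gene (RPKM). In sham mice Itgb1 was highest with 18.2 ± 0.243 RPKM, followed by Itgb5 (15.7 ± 0.263), Itgav (6.11 ± 0.495), Itgam (4.02 ± 0.564), Itga6 (3.33 ± 0.175) and Itga4 (2.14 ± 0.186), each as mean and SD of 3 mice. Below them were Itgb2 (1.53), Itga5 (0.525), Itgal (0.182) and Itgax (0.111). No neighbours in this order overlapped among the sham mice. In BCAS mice Itgb5 was first with 79.8 ± 14.9 RPKM, followed by Itgb1 (34.9 ± 5.82), Itgam (32.4 ± 12.3), Itgb2 (26.6 ± 9.04), Itga6 (9.23 ± 2.03), Itgav (8.95 ± 1.50) and Itgax (8.24 ± 0.844). Itga5 (2.74), Itga4 (1.74) and Itgal (0.922) came last. Here Itgb1 and Itgam overlapped, as did Itga6 and Itgav, and Itgav and Itgax. In each of these pairs the higher chain differed between mice, so their order is not set. Itgam and Itgb2 also overlapped between mice. Within each BCAS mouse, however, Itgam was higher on this length (24.2 against 19.9, 26.6 against 23.0 and 46.6 against 36.9 RPKM). With its full exonic length Itgam would stand at 1.26 RPKM in sham and 10.2 RPKM in BCAS mice, so its place in both orders depends on the length used. The full length understates Itgam, since reads on its shared bases were not assigned. Per length, Itgax moved from the last place in sham mice to the level of Itgav and Itga6, while Itga4 moved from sixth place to ninth.

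The leukocyte chains made up 15.9%, 13.7% and 16.7% of the summed RPKM of the 10 chains in sham mice against 31.2%, 33.5% and 36.3% in BCAS mice. Every BCAS mouse was above every sham mouse. The means were 15.4 ± 1.57% and 33.7 ± 2.54% (SD, n = 3 each), a difference of 18.3 percentage points (exact two-sided permutation test, P = 0.1, the smallest value that 3 against 3 mice allow). The size of the difference depended on the length used, since it was 9.35 points from counts not divided by length. Within the widely expressed chains the makeup also moved, as Itgb5 went from 30% to 30.6% of all 10 chains in sham mice to 37.6% to 40.3% in BCAS mice, and Itgb1 from 34.9% to 35.3% down to 16.1% to 18.0%.

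**Figure D3:**
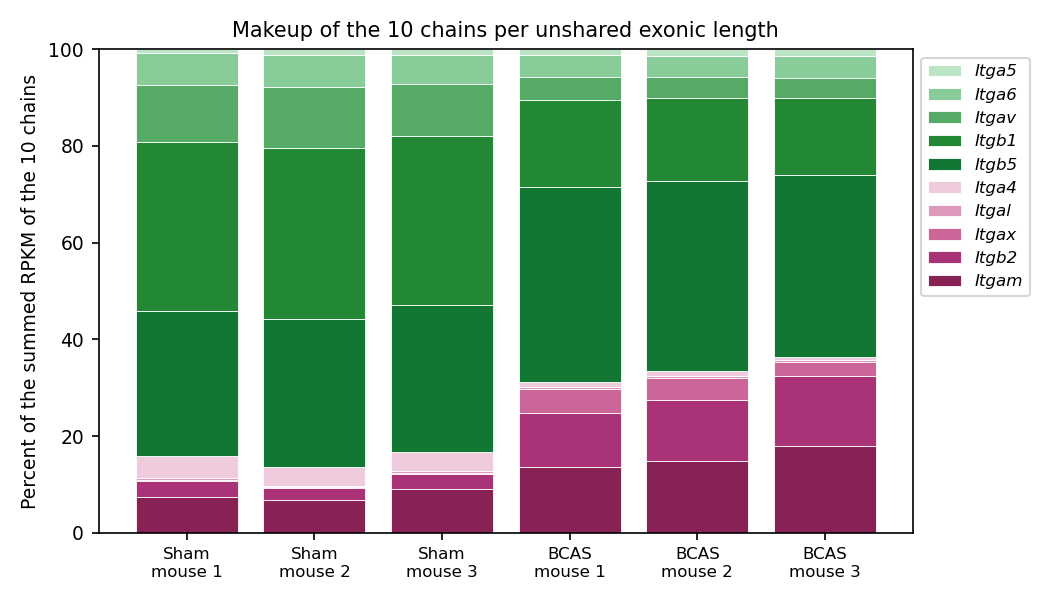
Percent of the summed RPKM of the 10 chains taken by each chain in each mouse, leukocyte chains in purple and widely expressed chains in green. The purple part spans 13.7% to 16.7% in sham mice against 31.2% to 36.3% in BCAS mice.

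The alpha chains that pair with Itgb2 shifted among themselves. Of the summed RPKM of Itgam, Itgax and Itgal, Itgax took 2.81%, 3.11% and 1.95% in sham mice against 26.9%, 22.8% and 13.5% in BCAS mice. Itgam took 93.1%, 93.3% and 93.2% in sham mice against 71.2%, 74.9% and 84.2% in BCAS mice. The BCAS mice differed here more than the sham mice, and BCAS mouse 3 was the closest to sham. Itgal took 3.59% to 4.81% in sham mice against 1.901% to 2.33% in BCAS mice, a smaller share although its own level rose. The sum of the alpha chains was 2.47, 3.08 and 2.97 times the level of Itgb2 in sham mice against 1.70, 1.54 and 1.50 times in BCAS mice, without overlap. These values rest on the unshared bases of Itgam. With the full exonic length, an alternative added after seeing the data, the ratio was 0.890 to 1.11 in sham and 0.633 to 0.871 in BCAS mice, and Itgax took 5.42% to 8.65% and 32.0% to 52.7% of the alpha chains. The groups still did not overlap, but Itgax then exceeded Itgam in BCAS mouse 1, on a length that understates Itgam. The 4th partner of Itgb2, Itgad, was too low to be tested.

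Ratios within a library do not depend on how libraries are scaled, and 7 were compared with the exact two-sided permutation test. For 6 of them the groups did not overlap and P was 0.1 (0.117 after Benjamini-Hochberg adjustment over the 7 ratios), the smallest value possible, so none could pass 0.05. The log2 ratio of Itgb2 to Itgb1 was -3.98 ± 0.27 in sham mice against -0.85 ± 0.26 in BCAS mice (SD, n = 3 each), a difference of 3.13. The log2 ratio of Itgax to Itgam went from -3.43 ± 0.34 to -0.31 ± 0.64, a difference of 3.12, and that of Itgal to Itgam from -2.37 ± 0.19 to -3.06 ± 0.11. Both use CPM not divided by length, and Itgam was counted only on its unshared bases. Only the differences between groups can therefore be read, not which chain was more abundant. The log2 ratio of Itgav to Itgb5, 2 chains of 1 receptor, went from 0.14 ± 0.11 to -1.65 ± 0.07. The SD within each group was below the difference between the means in all 4 cases, but for Itgal against Itgam the gap between the groups was no wider than the range among sham mice.

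**Figure D4:**
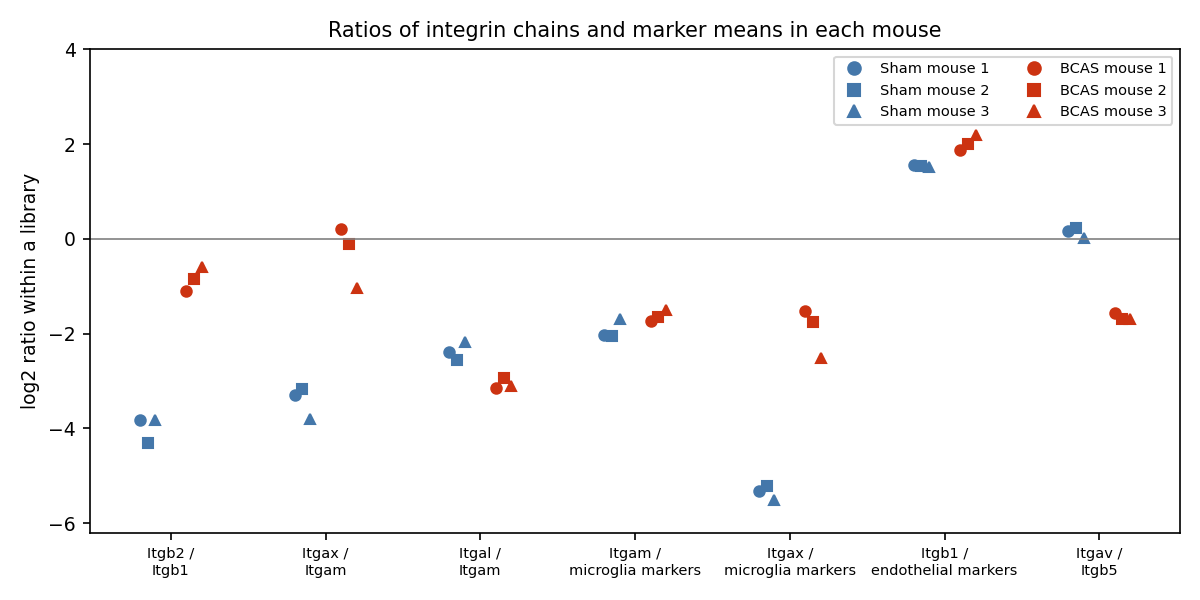
Log2 ratio of CPM within each library for 7 pairs of integrin chains or of a chain and the mean of a marker list, with blue points for sham and red points for BCAS mice. The groups overlap only for Itgam against microglia markers, and the ratio of Itgb2 to Itgb1 differs by 3.13 between groups.

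Markers of microglia rose along with 9 of the 10 chains. All 10 microglia and macrophage markers rose, with a median log2 fold change of 2.65 and a summed level of 336 to 358 CPM in sham mice against 1827 to 2953 CPM in BCAS mice. Relative to the mean of these markers, Itgam had a log2 ratio of -1.92 ± 0.19 in sham and -1.62 ± 0.12 in BCAS mice, a difference of 0.29 (exact permutation P = 0.2), and the groups overlapped. Itgax, by contrast, was higher relative to the same markers by 3.41 on the log2 scale (from -5.34 ± 0.15 to -1.93 ± 0.52). With each profile centred on its own mean over the 6 libraries, Itgb5 and Itgam followed the marker mean most closely, with root mean square differences of 0.187 and 0.198 on the log2 scale, then Itga5 (0.279) and Itgal (0.311). Itga6 (0.606), Itgb2 (0.720), Itgb1 (0.867), Itgav (1.06), Itga4 (1.52) and Itgax (1.73) were further away. The single markers had log2 fold changes of 1.54 to 4.17, a range that includes Itgb2 (4.12). A larger distance from the marker mean therefore does not place Itgb2 outside the markers.

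**Figure D5:**
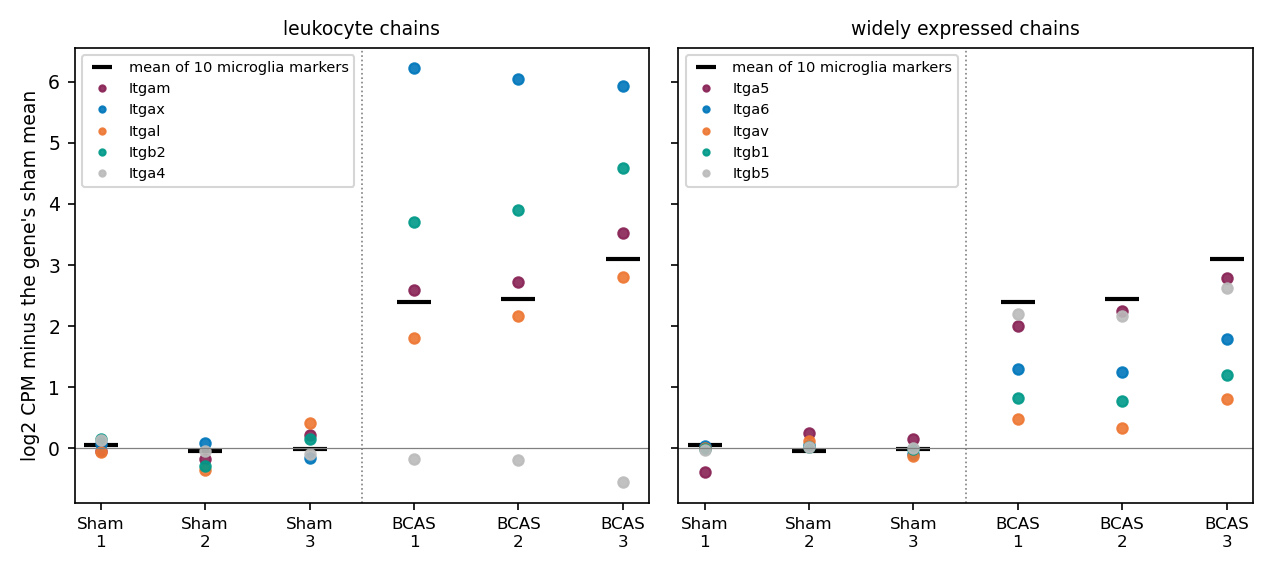
Log2 CPM of each chain minus its own mean in sham mice, by library, for leukocyte chains (left) and widely expressed chains (right), with a black bar at the mean of 10 microglia and macrophage markers. In BCAS mice Itgax lies at 5.93 to 6.22, Itgb5 at 2.16 to 2.62 close under the markers, and Itga4 below 0.

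BCAS mouse 3 had the highest level of 8 of the 10 chains. Its CPM relative to the mean of BCAS mice 1 and 2 was 1.84 for Itgam, 1.75 for Itgal, 1.72 for Itgb2 and 1.58 for Itga5. Lower values were found for Itga6 (1.44), Itgb5 (1.36), Itgb1 (1.32) and Itgav (1.31), and the exceptions were Itgax (0.868) and Itga4 (0.771). The same ratio ran from 1.34 to 1.996 over the 10 microglia and macrophage markers, with a median of 1.604. Itgax was lowest in the BCAS mouse in which those markers were highest.

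Markers of blood leukocytes were low in all libraries but also moved. Monocyte and neutrophil markers, of which 3 of the 4 tested rose (Ccr2, Ly6c2 and Plac8), summed to 0.778 to 2.24 CPM in sham mice against 6.00 to 12.7 CPM in BCAS mice, and the neutrophil marker Ly6g had 0 counts in every library. T, NK and B cell markers, with 6 of 8 tested called upward, summed to 0.767 to 1.44 CPM in sham and 7.88 to 9.26 CPM in BCAS mice. Border macrophage markers, with 4 of 6 called upward, summed to 9.60 to 13.9 and 26.8 to 35.1 CPM. Of the 5 dendritic cell markers tested, 1 (Xcr1) was called, and the untested Ccr7 had 0 to 4 counts in sham mice against 7 to 34 in BCAS mice. The sum of the list, most of it Flt3 and Zbtb46, overlapped between groups (15.1 to 19.5 and 16.5 to 19.6 CPM). The part of each of these cell types in the changes of the leukocyte chains was not tested.

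Vessel markers had lower medians than the widely expressed chains, a difference that was not tested. Endothelial markers had 6 of 10 called upward with a median log2 fold change of 0.45 and summed to 311 to 331 CPM in sham and 402 to 461 CPM in BCAS mice. Pericyte and smooth muscle markers had 4 of 8 called upward with a median of 0.50 (summed levels of 302 to 382 and 398 to 461 CPM). Relative to the mean of the endothelial markers, Itgb1 was higher in BCAS mice by 0.49 on the log2 scale (1.53 ± 0.02 in sham and 2.02 ± 0.16 in BCAS mice, SD, n = 3 each), without overlap. All 6 astrocyte markers were called upward with a median log2 fold change of 0.74, with Gfap highest at 3.29 and carrying most of the rise of their sum (3551 to 3917 against 8365 to 8988 CPM), and 1 of 6 oligodendrocyte lineage markers was called. Of 6 fibroblast and choroid plexus markers, the fibroblast genes Col1a1 and Lum were called upward, at 9.18 to 20.9 against 31.0 to 85.5 CPM and 5.13 to 7.28 against 7.75 to 14.8 CPM. Dcn, the most abundant fibroblast gene of the list, was not called (log2 fold change 0.27) and overlapped between groups, as did the sum of the list, which moved with Ttr (193 to 4049 against 220 to 5895 CPM). The part of these cells in the changes of Itgb1, Itga5, Itga6, Itgav and Itgb5 was not tested. Between sham mouse 3 and BCAS mouse 2 alone, the libraries with the lowest Ttr, the log2 differences were 6.20 for Itgax, 3.76 for Itgb2, 2.51 for Itgam, 1.75 for Itgal, -0.09 for Itga4, 2.16 for Itgb5, 2.10 for Itga5, 1.34 for Itga6, 0.78 for Itgb1 and 0.46 for Itgav. This comparison of 1 mouse per group was added after seeing the data and has no test, and the part of choroid plexus RNA in the changes was not tested.

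Most like Itgb2 in pattern over the 6 libraries, by the root mean square difference of centred log2 CPM, were Fcgr2b (0.103), AU020206 (0.108), Ptprc (0.124), Sp110 (0.131) and Ly86 (0.135). Fcgr2b is an inhibitory receptor for IgG and Ptprc is CD45, the phosphatase found on all leukocytes. Their log2 fold changes were 3.96 to 4.23, beside 4.12 for Itgb2. Most like Itgb1 were Snx18 (0.0282), Fgfrl1 (0.0346), Tmem123 (0.0370), Abcd2 (0.0388) and Lims1 (0.0449), of which Lims1 encodes PINCH-1, an adaptor of the complex that links integrins to actin. The genes were ranked on the same libraries, so these are descriptions.

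Of 16 other integrin chains, 14 were tested, 5 rose, none fell and 9 were not called, with a median log2 fold change of 0.43. The called share of 35.7% was close to the 31.3% of all tested genes. Itgb3, another partner of Itgav, rose from 2.54 ± 0.176 to 12.6 ± 2.73 CPM (SD, n = 3 each), or by 2.31 on the log2 scale (standard error 0.19), beside 2.34 for Itgb5. Itgb8, a partner of Itgav that activates latent TGF-beta, had a log2 fold change of 0.68 from 89.0 ± 11.7 CPM in sham mice. Itgb7, which pairs with Itga4 or Itgae on lymphocytes, rose by 1.88 on the log2 scale from 0.718 ± 0.071 CPM, while Itga4 was not called. Itga1, a collagen-binding partner of Itgb1, rose by 0.77 on the same scale. Itga2, likewise collagen-binding, had a log2 fold change of 1.22, from 12 to 23 counts in sham mice to 32 to 47 in BCAS mice (edgeR adjusted P = 0.0361), a call that was lost whichever mouse was left out, with edgeR adjusted P values of 0.0506 to 0.113.

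Of 14 genes for ligands of the leukocyte chains, 10 were tested, 5 rose, 1 fell and 4 were not called, with a median log2 fold change of 0.88. C3, whose fragment iC3b binds Mac-1 and CD11c/CD18, rose by 5.50 on the log2 scale, from 27 to 54 counts in sham mice to 1287 to 2062 in BCAS mice. Icam1, the ligand of LFA-1 and Mac-1, rose from 2.34 ± 0.376 to 17.5 ± 6.92 CPM (log2 fold change 2.90, standard error 0.28), and F11r, a junctional adhesion molecule that binds LFA-1, rose by 2.09. Vcam1, the ligand of VLA-4, rose from 36.5 ± 4.64 to 77.8 ± 16.5 CPM (log2 fold change 1.09, standard error 0.16), whereas Itga4 was not called. Icam5, an LFA-1 ligand of neurons, fell from 193 ± 11.6 to 125 ± 23.5 CPM (log2 fold change -0.63), alongside the neuron markers, of which 6 of 8 fell.

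All 19 genes for matrix ligands were tested, and 13 rose, none fell and 6 were not called, with a median log2 fold change of 0.80. Spp1, encoding osteopontin, which binds integrins of the Itgav group, rose from 9.53 ± 4.21 to 202 ± 85.6 CPM (SD, n = 3 each), or by 4.40 on the log2 scale. Tgfb1, whose latent form binds Itgav with Itgb6 or Itgb8, rose by 2.60, and Thbs1, encoding thrombospondin 1, by 2.11. Fn1, encoding fibronectin, the ligand of Itga5 with Itgb1, rose by 1.18 (standard error 0.22), less than Itga5 at 2.38.

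Of 26 adaptors and activators that act on the integrin tails inside the cell, 24 were tested, 11 rose, 2 fell and 11 were not called, with a median log2 fold change of 0.25. The largest rises were those of leukocyte adaptors, Fyb (3.73), Apbb1ip (2.97), which encodes the talin-recruiting protein RIAM, and Fermt3 (2.86, standard error 0.25), which encodes kindlin-3 and is restricted to blood cells and their relatives. The widely expressed paralog Fermt2 had a log2 fold change of 0.05 and was not called. Tln1, encoding talin-1, rose by 1.46 (standard error 0.17), while its paralog Tln2, the main talin of the brain, had a log2 fold change of -0.12 and was not called. The 2 that fell were the kinases Ptk2b (-0.93), also known as Pyk2 and abundant in hippocampal neurons, and Ptk2 (-0.22), the focal adhesion kinase.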

How the data were processed

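The counts deposited by the authors are raw, with no normalization, for 6 libraries (3 sham, 3 BCAS). Trimmed reads had been aligned to mm10 (HISAT2) and assigned to genes (featureCounts). The file headers name featureCounts 2.0.3, the methods 1.6.3. Per the file headers, each mate counted as 1 read, strand was not used, and reads on several genes or places were left out. BCAS columns carry other numbers in the headers than in the labels, whose numbers are used here. Symbols were matched for 54723 of 54752 genes.

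Genes kept by edgeR's filterByExpr were normalized by TMM and tested with edgeR 4.0.16 (R 4.3.3) without covariates, with Benjamini-Hochberg adjustment over 18617 genes. Standard errors were derived from the F statistic. Log2 CPM used a prior count of 2. RPKM used exonic bases not shared with another gene. The members and lists were chosen with earlier results of these data known. Named genes are all 10 chains, other integrin chains that were called, and for each ligand and adaptor list the 3 largest rises and 3 largest falls among called genes, with Icam1, Vcam1, Fn1, Tln1 and Fermt3. Itga8 was also named because its call changed in some alternatives, and Itgad as a partner of Itgb2. Tln2 and Fermt2 were named as paralogs after their values were seen. The steps were tested on simulated data. Alternatives were DESeq2 1.42.0, limma-voom (limma 3.58.1), RLE factors, library totals, other filters, halved counts, the replicate block and leaving out each mouse. The blood flow, histology and qRT-PCR measurements were not analysed here.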

Additional observations from a re-analysis of the deposited data

How the results depend on the processing

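All 10 chains kept their direction and their side of the adjusted P threshold in all 14 alternatives. The count of DEGs was 7 in all of them except library totals and leaving out BCAS mouse 2, where it was 8, as Itgb1 had log2 fold changes of 1.02 and 1.01. Itgav came closest to losing its call, with an edgeR adjusted P of up to 0.0473 when 1 mouse was left out, and the adjusted P of Itga4 ran from 0.0775 to 0.298. Itgax kept log2 fold changes of 6.12 to 6.28 and Itgb2 of 3.81 to 4.29. Over all genes, leaving out 1 mouse gave 3782 to 6646 calls against 5819. Scaling by library totals moved the median log2 fold change of all genes from 0.018 to 0.095 and the share of calls that were upward from 57.7% to 68.3%. The difference in the share of leukocyte chains was 18.3 percentage points, 9.35 without division by length and 15.4 with the full exonic length (added after seeing the data). Among other integrin chains, Itga2 was not called under the replicate block (edgeR adjusted P = 0.0863), and Itga8 (log2 fold change -0.44, not called) was called in 3 alternatives.

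With the replicate number as a block, 4532 genes were called against 5819, and the log2 fold changes were 6.21 for Itgax, 4.08 for Itgb2, 2.96 for Itgam, 2.31 for Itgal, -0.30 for Itga4, 2.37 for Itga5, 1.45 for Itga6, 0.54 for Itgav, 0.93 for Itgb1 and 2.33 for Itgb5, with the same calls. The pairing by number was not borne out, since same-numbered sham and BCAS mice had residual correlations of 0.036, -0.314 and -0.158. A level of 0.0874 to 0.0994 CPM is the limit set by depth, and 3 mice per group limit every exact test to P = 0.1.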
